A study of Mus musculus with 2 samples.

Results

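The 10 genes described here, which endothelial cells share with blood stem cells, were followed in erythroid progenitors with and without ESAM. They encode adhesion molecules (Cdh5, Pecam1, Cldn5 and Icam2), receptors (Kdr, Tek, Tie1 and Robo4), the surface sialomucin Emcn and the secreted protein Egfl7. The genes were taken by name, and every probe whose RefSeq accession belongs to one of them was used. This gave 11 probes, present as 21 spots, for all 10 genes out of 20660 genes with a name on the array. ESAM, the endothelial cell-selective adhesion molecule, is itself found both at endothelial junctions and on blood stem cells.

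Both groups were C57BL/6 mice that received 1 injection of 5-FU, an anti-cancer drug that kills dividing marrow cells, at 120 mg/kg and were killed 8 days later. According to the methods, all mice were 8 to 12 weeks old and marrow of 3 mice per genotype was pooled before the sort. One group was wild type (WT) and the other lacked ESAM (ESAM-KO). ESAM-KO mice were bred from heterozygous parents, and the methods do not say whether the WT marrow came from littermates or from purchased mice. From each pool of femoral and tibial marrow, early erythroid progenitors called pre CFU-E were sorted. They lacked lineage markers and Sca1, had little or no FcgRII/III and low CD41, and carried c-Kit, endoglin and CD150. Their RNA was amplified, labelled with Cy3 and hybridised to 1 Agilent array per genotype. With 1 array each, there were no replicates, and hence no SD or p-value. Genotype cannot be told apart from the pool, the sort or the amplification of each array.

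Blood stem cells arise in the embryo from a specialised endothelium, and blood stem cells and vessel lining keep a number of surface proteins and transcription factors in common. In endothelium, Cdh5 (VE-cadherin) holds neighbouring cells together at adherens junctions, Cldn5 forms tight junctions, and Pecam1 (CD31) and Icam2 lie at cell borders and bind leukocytes or other endothelial cells. Kdr is the main signalling receptor for VEGF, Tek (Tie2) is the receptor for angiopoietins, and Tie1 is its partner receptor. Several of these proteins, Pecam1, Tek, Emcn and Robo4 among them, are also used to study or isolate blood stem cells.

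ETS transcription factors such as Erg, Fli1 and Ets1 bind many endothelial promoters. Stretches with an ETS motif, searched as the letters CAGGAAG or CCGGAAG only, are therefore shown first. The shorter ETS core within these letters was not searched, so windows without them can still hold it. RefSeq promoter windows, from 250 bases before to 50 bases after a transcription start, were found for 7 of the 10 genes, as 9 windows in assembly GRCm38.p6. The letters CAGGAAG, searched on both strands, were in 4 of the 9 windows, which belong to 3 genes (Egfl7, Emcn and Robo4), and in 13.3% of all 32851 windows of the table. The letters CCGGAAG were in 0 of the 9 windows and in 8.86% of all windows. In the stretches below, of 47 bases each, capitals mark CAGGAAG or its reverse complement, and the 3 genes lie on the plus strand.
Emcn, chr3:137340884-137340930, motif starting 174 bases before the transcription start: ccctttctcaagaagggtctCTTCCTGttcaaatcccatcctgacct
Robo4, chr9:37401902-37401948, 50 bases before: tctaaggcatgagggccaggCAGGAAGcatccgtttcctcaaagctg
Egfl7, chr2:26580973-26581019, 90 bases before the most upstream start: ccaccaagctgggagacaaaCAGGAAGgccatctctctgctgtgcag
Egfl7, chr2:26581014-26581060, 49 bases before the same start: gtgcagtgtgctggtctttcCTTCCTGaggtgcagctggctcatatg
Egfl7, chr2:26583764-26583810, 81 bases before a further start: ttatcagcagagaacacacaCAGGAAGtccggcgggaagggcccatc
Egfl7 thus held the letters in 2 of its 3 windows and was the only member with more than 1 match. The GATA motif AGATAA was in 1 of the 9 windows, that of Tek, against 11.2% of all windows. The GC-rich letters GGGCGG were in 3 windows, 1 each of Kdr, Egfl7 and Cldn5, against 35.7% of all windows. These matches describe the letters alone, and binding was not measured.

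Egfl7 also carries the microRNA miR-126a, known for its roles in endothelium and in blood stem cells, and the RefSeq position of its mature form lies inside the gene, at chr2:26591402-26591423 of GRCm38.p6 on the plus strand. Its sequence is given with the seed, bases 2 to 8, in capitals. Of the probes matched to a gene by RefSeq accession, 0 were for it, so that only the host gene is reported here.
mmu-miR-126a-3p: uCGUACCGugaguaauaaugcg

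All values below are the scanner software's processed signal, an intensity corrected for background within the array. A spot counts as detected where the software marked it well above background, and the lowest such signal was 12.6 for WT and 13.2 for ESAM-KO. The software marked 57.3% of the 59305 non-control spots as well above background in WT and 61.1% in ESAM-KO, and 0 were saturated. Ratios are log2 of ESAM-KO over WT after each array was set to its 75th percentile, 201.4 in WT and 251.1 in ESAM-KO, which lowers every ratio by 0.32. The error given with a ratio is the scanner software's own error of the spots, and does not cover the spread between mice. Where a probe was detected on 1 array only, the ratio is a bound against the other array, where the higher of its lowest detected signal and the probe's own signal was used. That lowest signal is not a strict limit of detection, as a WT probe at 14.8 was not well above background. A bound given as "at least" holds only against the signal used. The criterion of the study's methods, a difference of more than 2-fold, is used throughout. Of all named genes, 14136 had a ratio, of which 1521 were bounds, and their median was 0.00. Esam itself (NM_027102) went from 27.4 to 20.6 between the arrays (log2 ratio -0.73, error 0.31), within 2-fold and near background, which is a weak check of the genotype.

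Of the 10 genes, 5 were detected on both arrays (Pecam1, Icam2, Kdr, Emcn and Egfl7), 2 on the ESAM-KO array only (Tek and Cldn5), and 3 on neither array (Cdh5, Tie1 and Robo4). By more than 2-fold, 1 of the 7 genes with a ratio was lower in ESAM-KO, Pecam1, and 1 was higher, Tek. Among all named genes with a ratio, 8.43% were lower and 6.99% were higher. The members' counts of 1 in each direction out of 7 are too small to set them apart from these shares. Their median log2 ratio was 0.04, and -0.13 over the 5 genes detected on both arrays. The value of -0.13 is that of the brighter Kdr probe, and the further Kdr probe was detected on neither array. At the dimmest probe of each gene, Kdr had no ratio and the members' median was 0.12.

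**Figure D1:**
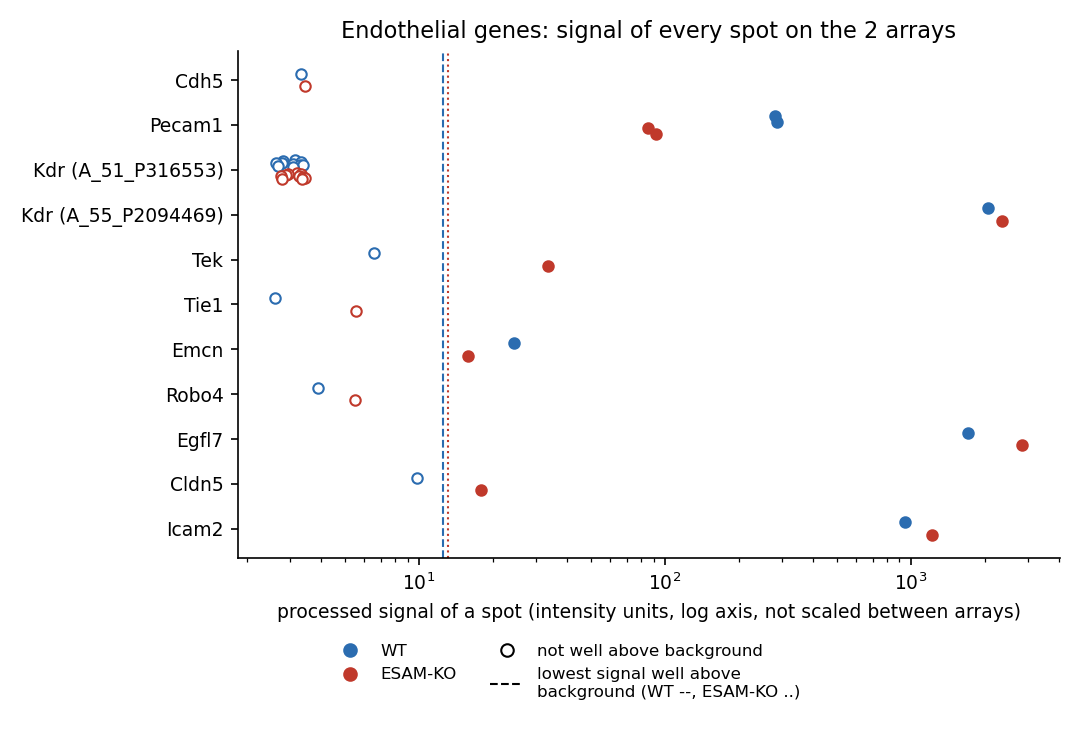
Processed signal (intensity units, log axis, not scaled between arrays) of each of the 21 spots, with 1 row per probe, WT in blue and ESAM-KO in red, open points where a spot was not well above background, and lines at the lowest detected signal of each array. The pairs of Kdr (1 of its probes), Egfl7 and Icam2 lie well to the right of the lines and close to each other, and those of Pecam1 are far apart, with the ESAM-KO spots to the left.

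Among the adhesion molecules, Pecam1 differed most. Its probe (NM_001032378) was printed as 2 spots, which read 281.0 and 286.6 with WT RNA and 85.8 and 91.9 with ESAM-KO RNA. Both ESAM-KO spots were below both WT spots, and the spots gave log2 ratios of -2.03 and -1.96. The mean of -1.99, with an error of 0.21, is a 3.98-fold lower level in ESAM-KO. Of the 14136 genes with a ratio, 298 (2.11%) had a lower one. Pecam1 lay in the second-dimmest quartile of the 12615 genes detected on both arrays, where 11.1% of genes were lower and 7.93% higher by more than 2-fold. The 2 spots repeat 1 probe on the same labelled RNA, and no other probe was matched to Pecam1 by its RefSeq accession. Probes without such a match were not searched.

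Pecam1 is not restricted to endothelium: neutrophils, monocytes, platelets and B cells also carry it. The sort gated out cells with Mac1, Gr1, B220, CD3e or Ter119, which mark mature myeloid, B, T and erythroid cells, and the methods describe a purity check of the sorted cells. Markers of neutrophils moved with it, as 11 of 11 listed genes were lower by more than 2-fold, with a median log2 ratio of -3.35 and Ctsg, Ltf, Mpo, Lcn2, Ngp and S100a8 at the lower end. Summed over that list, the signal relative to each array's 75th percentile was 297.8 in WT and 40.2 in ESAM-KO. Of the 7 listed B cell genes with a ratio, 4 were lower by more than 2-fold (Igll1, Vpreb1, Cd79b and Ebf1) and 0 were higher, with a median of -1.72 and a summed relative signal of 2.95 in WT and 0.96 in ESAM-KO. The B cell count was 1, with a median of -0.59, under normexp with quantile normalization, and 2 over genes detected on both arrays only. The platelet and megakaryocyte list moved in both directions, with 3 genes lower (Treml1, Ppbp and Gp9), 2 higher (Gp1ba and Vwf) and a median of 0.32 over 15 genes, and under normexp with quantile normalization 1 was lower and 0 higher. The part of such cells in the Pecam1 difference was not tested, and fewer cells of a type and less RNA per cell cannot be told apart in sorted bulk RNA.

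The other adhesion molecules did not pass 2-fold. Icam2 (NM_010494), a ligand of leukocyte integrins that is also present on blood cells, read 953.2 in WT and 1224 in ESAM-KO. After scaling these signals were nearly the same, at a log2 ratio of 0.04 with an error of 0.20. Cldn5 (NM_013805) was not well above background in WT, at 9.79, and was just so in ESAM-KO, at 17.9. The ESAM-KO level was thus higher by at least 1.14-fold, a bound that lies within 2-fold. Cdh5 (NM_009868), the junction cadherin that defines endothelium, was undetected on both arrays, at 3.30 in WT and 3.45 in ESAM-KO, and has no ratio.

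**Figure D2:**
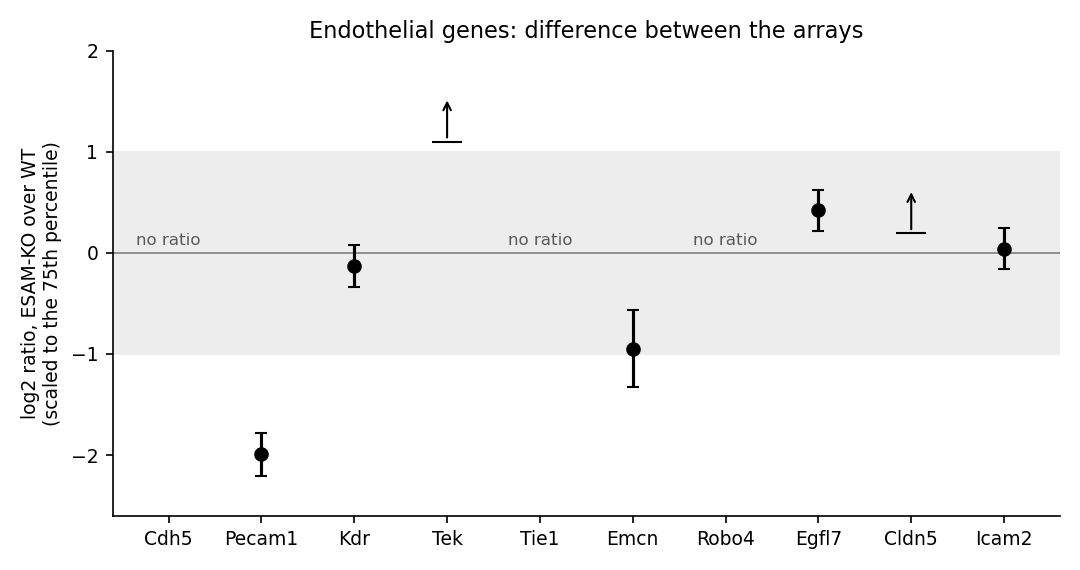
Log2 ratio of ESAM-KO over WT of each gene after scaling to the 75th percentile, with the scanner software's error as bars (1 array per genotype, so not a spread between mice), arrows for bounds, and a grey band for differences within 2-fold. Pecam1 lies below the band, the bound of Tek above it, and Emcn at its lower edge, and Cdh5, Tie1 and Robo4 have no ratio.

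Of the receptors, Tek alone passed 2-fold. Its probe (NM_013690) read 6.58 in WT, not well above background, and 33.6 in ESAM-KO. Against the lowest detected WT signal, the ESAM-KO level was thus higher by at least 2.14-fold. Under normexp with quantile normalization the log2 ratio of Tek was 0.44, inside 2-fold. The WT signal is below the lowest detected signal of that array, so the size of the difference beyond the bound is not known. Among the 15 stem and early progenitor genes listed, only Hlf, a transcription factor of blood stem cells, was likewise higher by more than 2-fold in ESAM-KO, from 14.8, not well above background, to 139.9, at least 7.58-fold. The probe taken for Mecom was detected on neither array, and a further probe of it was higher by at least 2.09-fold. A further probe of Cd34 went the other way, from 46.1 in WT to 22.0 in ESAM-KO (log2 ratio -1.38). The probe taken for Cd34 gave 0.18. Ly6a, the gene of Sca1, which the sort excluded, was at least 5.79-fold lower, at 61.1 in WT and 12.3, not well above background, in ESAM-KO. Pdzk1ip1 was also lower at the probe taken for it, from 35.1 to 16.0, while its other probe gave a log2 ratio of -0.51, inside 2-fold. The list thus moved in both directions around a median of -0.39 over 12 genes with a ratio, Esam among them. The 2 lower were 0 under normexp with quantile normalization, and 1 with the mean of probes or with genes detected on both arrays only. The number higher was 0 with genes detected on both arrays only. It was 2 without scaling, with the mean of probes and at the dimmest probe of each gene. The part of rarer stem cells in the Tek difference was not tested.

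Kdr, the VEGF receptor, gave values that depended on the probe. One probe, on 1 spot, read 2056 in WT and 2345 in ESAM-KO. This is a log2 ratio of -0.13 (error 0.20). The other, on 10 spots for the same accession (NM_010612), read 2.62 to 3.37 in WT, with a median of 3.08, and 2.75 to 3.45 in ESAM-KO, with a median of 3.22. None of its 10 spots was detected on either array. The bright probe therefore gives no difference past 2-fold, and whether it or the dim probe reports Kdr was not settled by these files, as probe positions within the transcript were not used here. Tie1 (NM_011587) read 2.61 in WT and 5.52 in ESAM-KO, and Robo4 (NM_028783), a receptor of the Robo family with a role in vessels and in anchoring blood stem cells, read 3.90 and 5.50. Neither gene was detected on either array.

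Emcn, a mucin-like glycoprotein of veins and capillaries that also marks blood stem cells, was detected near the limit on both arrays. Its probe (NM_001163522) read 24.4 in WT and 15.8 in ESAM-KO. The log2 ratio was -0.95 with an error of 0.38, which is 1.93-fold lower in ESAM-KO and just inside the criterion. In the dimmest quartile of genes detected on both arrays, where Emcn lay, 9.58% of genes were lower and 8.34% higher by more than 2-fold.

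Egfl7, a secreted factor of vessel growth and the host of miR-126a, was bright on both arrays. Its probe (NM_178444) read 1706 in WT and 2849 in ESAM-KO. The log2 ratio was 0.42 with an error of 0.20, a 1.34-fold higher level that is within the criterion. In the brightest quartile, which held Egfl7, Icam2 and the bright probe of Kdr, 1.84% of genes were lower and 0.793% higher by more than 2-fold, so that differences past the criterion were rare there.

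**Figure D3:**
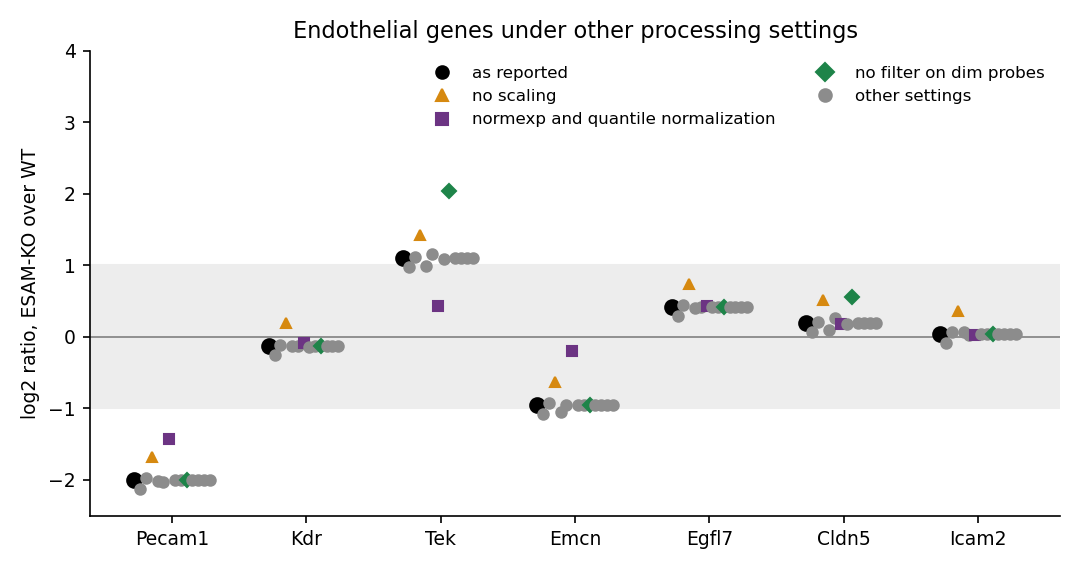
Log2 ratio of the 7 genes with a ratio under the reported settings (black), without scaling (triangles), with normexp and quantile normalization (squares), without the filter on dim probes (diamonds) and under the remaining settings (grey), with a grey band for differences within 2-fold. Pecam1 stays below the band under each setting, from -2.12 to -1.42, whereas Tek moves from 0.44 to 2.03 and Emcn from -1.08 to -0.20, both across the edge of the band.

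The genes around these receptors were next examined. Of 18 genes of VEGF and angiopoietin signalling, 11 had a ratio, 2 of them higher by more than 2-fold and 0 lower, with a median of 0.30. The number higher was 0 under normexp with quantile normalization, and 1 with median scaling or the mean of probes. Angpt2, which antagonises or weakly activates Tek depending on context, was higher in ESAM-KO, at 27.1 in WT against 126.8 (log2 ratio 1.91, error 0.26). Angpt1, the activating ligand of Tek, read 425.1 and 504.4, a log2 ratio of -0.07. Vegfa, the ligand of Kdr, read 790.4 and 2007 at the probe that represents it, a log2 ratio of 1.03, while its other probe gave 0.46, inside 2-fold. Flt1, a VEGF receptor that often acts as a decoy, was not well above background in WT, at 4.71, and read 23.7 in ESAM-KO, at least 1.51-fold higher. The co-receptors Nrp1 and Nrp2 and the phosphatase Ptprb, which acts on Tek and Cdh5, were detected on neither array.

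Of 14 junction genes, Esam itself and partners of Cdh5 and ESAM, 11 had a ratio, Esam among them, with a median of 0.17. Of these, 1 was lower, or 0 under normexp with quantile normalization, and 1 was higher by more than 2-fold. The plakoglobin gene Jup was lower, at 42.3 in WT against 18.7, with a log2 ratio of -1.49. The scaffold gene Tjp1 (ZO-1) was higher, at 265.4 and 825.1, a log2 ratio of 1.32. The catenin genes Ctnnb1 and Ctnnd1, whose proteins bind the tail of Cdh5 and also serve in cells without it, were bright and within 2-fold. Their log2 ratios were 0.17 and 0.53. Of 10 Slit and Robo genes, 6 had a ratio, with 1 lower, 0 higher and a median of 0.02. The gene past 2-fold was Srgap3, which acts downstream of Robo receptors, from 102.4 to 21.0 with a log2 ratio of -2.61, but another of its probes, detected on both arrays, gave 0.04.

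Of 18 transcription factors of endothelium and blood stem cells, 14 had a ratio, 1 lower and 1 higher, with a median of 0.14. The number higher was 0 with median scaling, cyclic loess and normexp with quantile normalization, and the number lower was 2 with median scaling and 0 at the dimmest probe of each gene. Ets1 was lower in ESAM-KO, with signals of 182.8 (WT) and 44.8 (ESAM-KO) and a log2 ratio of -2.35 (error 0.23). Its other probe, at 19.6 in WT and not detected in ESAM-KO, was lower by at least 1.86-fold. Hhex was just past the criterion, at 210.9 and 533.1 with a log2 ratio of 1.02. Other factors of both lineages were within 2-fold, with log2 ratios of 0.11 for Erg, -0.28 for Fli1, 0.32 for Tal1, 0.16 for Lmo2 and -0.03 for Gata2. The endothelial Sox genes Sox7, Sox17 and Sox18 were detected on neither array. Of the 3 genes with CAGGAAG in a promoter window, Egfl7 had a log2 ratio of 0.42 and Emcn, near background, -0.95. Both were within 2-fold, and Robo4 had no ratio. Any link of these genes to the ETS factors was not tested.

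The cells were also checked for endothelium and for their own lineage. Of 18 genes largely restricted to endothelium, 9 were detected on neither array, among them Lyve1, Sele, Esm1 and Apln. The other 9 had a median of 0.09, with 0 lower and 1 higher by more than 2-fold, Stab2 of sinusoids, which read 3.01 in WT, not well above background, and 31.7 in ESAM-KO, a log2 bound of 1.02. That number higher was 0 with median scaling, quantile normalization, normexp with quantile normalization and genes detected on both arrays only. The number lower was 2 without the filter on dim probes. At the dimmest probe of each gene it was 1, and the median was 0.57. The summed relative signal of the list was 77.6 in WT and 116.0 in ESAM-KO, most of it from Cd300lg, which read 14475 and 27647. All 18 erythroid progenitor genes were detected on both arrays, with a median of -0.33 and 5 lower by more than 2-fold, among them Slc4a1 and Alas2. Markers of macrophages had a median of 0.02 over 5 genes with a ratio (1 lower, Vcam1, and 1 higher, C1qa). Those of T and NK cells had 0.11 over 5 genes (1 lower, Cd3d). Those of stroma had 0.17 over 6 genes (1 lower, Pdgfrb, and 1 higher, Cxcl12). Cd3d, Pdgfrb and Cxcl12 have bounds only, and their counts were 0 with genes detected on both arrays only. The counts that hold Cd3d, C1qa and Cxcl12 were 0 under normexp with quantile normalization.

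**Figure D4:**
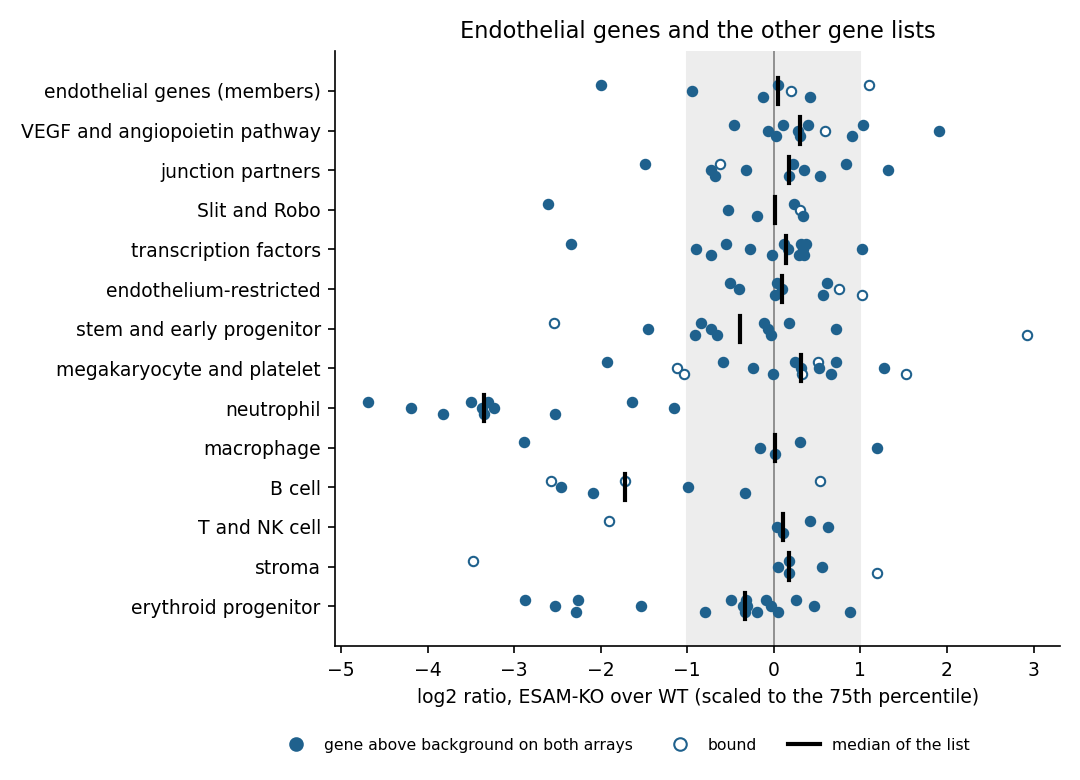
Log2 ratio of ESAM-KO over WT (scaled to the 75th percentile) of each gene with a ratio, with 1 row per gene list, filled points for genes detected on both arrays, open points for bounds, black lines for list medians and a grey band for differences within 2-fold. The endothelial genes at the top centre near 0 with Pecam1 at -1.99, while the neutrophil genes lie wholly below the band.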

How the data were processed

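RNA from sorted pre CFU-E was measured on 1 SurePrint G3 mouse array per genotype, and the arrays shared a slide and a scan. The authors deposited the intensity of each spot from Agilent Feature Extraction 10.10.1.1, with the background subtracted and spatial trends removed array by array and no scaling of arrays to each other, and a series table with the same intensity rounded. For this report, each array's log2 intensities were centred on their 75th percentile. Control spots and 254 outlier spots were left out, 0 of them among the members. Log2 values of repeated spots were averaged, and a probe was detected where more than 50% of its spots were well above background. Bounds under 1-fold were dropped. For a gene with several probes, the probe brightest on average over both arrays (log2) was taken. The files carry accessions, which RefSeq tables (GRCm38.p6, used for names) matched to 1 gene for 27235 of 55681 probes, or 48.9%.

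No test was possible with 1 array per genotype, and the number of arrays limits the precision. The members and the 13 other gene lists were chosen with earlier results of these data known. Named genes were all members, Esam, the members of each list past 2-fold (the 6 largest where more passed), and the ligands, co-receptors, junction partners and factors that the members' roles call for. The genes named as detected on neither array, Flt1 and Cd300lg were added after their values were seen. So were the further probes of Mecom, Cd34, Pdzk1ip1, Ets1 and Erg. Not every listed gene that passed is reported by name here. The other lists were VEGF and angiopoietin signalling, junction partners, Slit and Robo, transcription factors, endothelium, stem and early progenitor, megakaryocyte, neutrophil, macrophage, B cell, T and NK cell, stroma and erythroid genes. The alternatives were other scalings, normexp with an offset of 50 on median spot signals, the series table, other filters and probe summaries, outliers kept, a signal floor and thresholds of 1.5-fold and 3-fold. Scripts ran in R 4.3.3 (limma 3.58.1) and Python 3.11.15 (numpy 2.4.6, pandas 2.3.3). The counting was tested on simulated data.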

Additional observations from a re-analysis of the deposited data

How the results depend on the processing

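No paired analysis was possible because there was 1 array per genotype. Among the members, 1 gene was lower and 1 was higher by more than 2-fold as reported. The number lower was 2 with median scaling of the arrays, with quantile normalization and at a threshold of 1.5-fold, where Emcn joined Pecam1, and it stayed at 1 under the other settings run. The number higher was 0 with median scaling, quantile normalization, normexp with quantile normalization, genes detected on both arrays only, and a threshold of 3-fold. Tek, which has a bound only, has no ratio where detection on both arrays was required, and it was 0.44 under normexp. The members' median of 0.04 became 0.36 without scaling, when that of all named genes was 0.31. Of the 88 alternative values of single members, 80 moved by less than the scanner error, 8 moved by more and 0 called ratios changed sign. Pecam1 lay between -2.12 and -1.42, Kdr between -0.26 and 0.19, Egfl7 between 0.29 and 0.74, Cldn5 between 0.06 and 0.55, and Icam2 between -0.09 and 0.36. Using the dimmest probe of each gene, an alternative chosen after seeing the data, left Kdr without a ratio. Among all named genes, the share lower moved from 8.43% to 5.12% without scaling and to 3.44% with normexp, and the share higher from 6.99% to 12.7% and 1.67%. Of the 364 alternative counts of the other lists, 299 stayed within 1.5 times the reported count. Depth of signal limits Emcn, Tek and Cldn5, whose signals lie near background on at least 1 array.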
